A study of Mus musculus with 18 samples.

Results

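The genes *Mybpc3*, *Car4*, *Jph4*, *Gpr22*, *Nrep* and *Cadm3* were followed through the RNA and the ribosome footprints of the mouse cerebellum. They were chosen from the data described here, as falling protein-coding genes with the clearest change in mice without *Gtpbp1* or *Gtpbp2*. Whether footprints entered that choice beside RNA is not stated. The choice took 6 of the 54752 genes in the RNA files, of which 21904 are protein-coding, and all 6 are also among the 22523 genes with footprint counts. Because the genes were chosen from these data, their RNA values are given as a description without a test.

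The study asked how mouse neurons respond when ribosomes that pause at AGA codons are not rescued, in 3-week-old C57BL/6J (B6J) mice. Every group carries the B6J mutation in *n-Tr20*, a gene for the arginine tRNA that reads AGA, so the controls carry it too. Control mice were B6J. Congenic B6J.*Gtpbp1*-/- mice carry a knockout allele made with a PGK-Neo cassette. In B6J-*Gtpbp2*-/- mice, *Gtpbp2* carries the *nmf205* mutation, a null allele induced with ENU. They are written *Gtpbp1*-/- and *Gtpbp2*-/- mice from here on. GTPBP1 and GTPBP2 are related translational GTPases. Mice of both sexes were used, and each genotype had 3 RNA and 3 footprint libraries of whole cerebellum, 18 in all. RNA and footprint libraries are labelled as different batches, so batch and assay cannot be told apart.

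*Mybpc3* encodes cardiac myosin-binding protein C, which binds the thick filament of heart muscle, and *Car4* encodes a carbonic anhydrase that a lipid anchor holds on the outer face of the cell membrane. *Jph4* encodes a neuronal junctophilin, a protein that ties the endoplasmic reticulum to the plasma membrane where calcium channels of both membranes meet, and *Gpr22* an orphan G protein-coupled receptor of brain and heart. *Nrep* encodes a small intracellular protein linked with nerve regeneration and TGF-beta signaling, and *Cadm3* an adhesion molecule of the immunoglobulin superfamily that neurons carry on axons and at synapses.

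RNA libraries held between 37794333 and 52114145 counts and footprint libraries between 3630823 and 10442573. The footprint counts behind the 6 genes were lowest for *Gpr22*, with 62 in 1 *Gtpbp2*-/- library, and highest for *Cadm3*, with 9134 in 1 B6J library. As a check of the labels, footprints on *Gtpbp1* were 91.7 ± 22.4 CPM (counts scaled to library size with TMM factors) in B6J and 31.0 ± 5.10 in *Gtpbp1*-/- mice (SD, n = 3 each). They fell by 1.57 on the log2 scale (SE 0.227, edgeR quasi-likelihood p of 0.00676 after the Benjamini-Hochberg step), and the 3 mutant libraries lay below the 3 B6J libraries. *Gtpbp1* RNA was 71.8 ± 5.62 CPM in B6J and 43.2 ± 1.30 in *Gtpbp1*-/- mice (log2 fold change -0.73, SE 0.0818, edgeR adjusted p = 5.9e-05, and -0.31 with an adjusted p of 0.0819 when effective transcript length entered as an offset). The *nmf205* allele is a point mutation, so the level of *Gtpbp2* in *Gtpbp2*-/- mice is a weak check. Its footprints were 39.8 ± 4.46 CPM in B6J and 20.9 ± 11.7 in *Gtpbp2*-/- mice, below the B6J range in all 3 libraries, and its RNA was 82.7 ± 7.57 and 71.2 ± 5.13 CPM. Neither difference passed (edgeR adjusted p = 0.321 for footprints and 0.190 for RNA). In TPM the *Gtpbp2* RNA lay the other way, at 102 ± 11.4 in B6J and 141 ± 12.6 in *Gtpbp2*-/- mice, above the B6J range, and *Gtpbp1* RNA in *Gtpbp1*-/- mice (36.9 ± 3.67 TPM) overlapped with B6J (40.8 ± 2.61).

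Sex was read from the Y-linked gene *Ddx3y*. Among the RNA libraries, B6J replicate 2 and *Gtpbp1*-/- replicates 1 and 2 came from males, and among the footprint libraries B6J replicates 1 and 2 and *Gtpbp1*-/- replicate 1 did. All *Gtpbp2*-/- libraries came from females, so sex is uneven between the groups compared. With sex as a covariate, *Gtpbp2*-/- mice are in effect compared with the female B6J libraries, which in footprints is replicate 3 alone. In RNA this comes close to leaving out B6J replicate 2, so these alternatives are not separate. RNA between the mutants then rests on *Gtpbp1*-/- replicate 3.

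Per unit of transcript length, *Nrep* had the highest RNA level of the 6 in B6J, at 1212 ± 83.1 TPM (scaled to transcript length and library size, SD, n = 3). *Cadm3* followed at 517 ± 30.3 TPM, *Car4* at 322 ± 30.3 and *Jph4* at 113 ± 3.50. *Mybpc3* and *Gpr22*, at 63.3 ± 5.40 and 62.3 ± 2.17 TPM, overlapped with each other, while each of the higher levels stood apart from the next. The TPM order in *Gtpbp1*-/- mice was *Nrep* (499.9 ± 56.8), *Cadm3* (415 ± 46.6), *Car4* (111 ± 17.1), *Jph4* (54.0 ± 1.02), *Gpr22* (30.7 ± 2.80) and *Mybpc3* (18.9 ± 0.482). *Gtpbp2*-/- mice had the same order of mean TPM, with 578 ± 39.5, 441 ± 70.5, 132 ± 26.8, 67.1 ± 9.63, 32.1 ± 2.08 and 21.4 ± 5.84. *Gpr22* and *Mybpc3*, which overlapped in B6J, did not overlap in either mutant. Footprints per kilobase of coding sequence gave the order *Nrep* (2768 ± 714 CPM per kilobase in B6J), *Cadm3* (1286 ± 260.5), *Car4* (259 ± 60.4), *Gpr22* (38.6 ± 6.59), *Jph4* (32.6 ± 10.01) and *Mybpc3* (19.2 ± 8.94). *Gpr22* overlapped with *Jph4*, and *Jph4* with *Mybpc3*, on that scale.

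RNA of all 6 genes was lower in every mutant library than in any B6J library. A gap of that kind in the *Gtpbp1*-/- comparison was seen for 6 of the 6 genes and for 15.9% of all 24577 genes tested, and in the *Gtpbp2*-/- comparison for 6 of the 6 and for 14.1% of all 24859, which says nothing further about genes chosen for it. Both mutants were compared with the same 3 B6J libraries. Cerebellar tissue was measured whole, so fewer cells of a type and less RNA per cell cannot be told apart in any value given here.

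*Mybpc3* RNA was 151, 177 and 178 CPM in B6J replicates 1, 2 and 3, then 45.8, 45.7 and 43.3 in *Gtpbp1*-/- mice and 66.6, 48.0 and 39.1 in *Gtpbp2*-/- mice. The 3 *Gtpbp1*-/- libraries lay close together, and the *Gtpbp2*-/- libraries spread on both sides of them. The sarcomere gene thus stood at 26.7% of its B6J mean in *Gtpbp1*-/- mice (log2 fold change -1.91, SE 0.0830) and at 30.4% in *Gtpbp2*-/- mice (-1.72, SE 0.183).

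*Car4*, the membrane-anchored carbonic anhydrase, had 156, 140.1 and 166 RNA CPM in the B6J replicates, 45.5, 53.5 and 42.5 in *Gtpbp1*-/- and 45.1, 59.0 and 65.3 in *Gtpbp2*-/- mice. Even the highest mutant library, *Gtpbp2*-/- replicate 3, had less than the lowest B6J library, and the mutants overlapped. The means were 30.6% and 36.7% of B6J, with log2 fold changes of -1.71 (SE 0.0982) and -1.45 (SE 0.127).

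*Jph4*, the junctophilin, had 249, 263 and 245 RNA CPM in B6J, 114.1, 104 and 109.5 in *Gtpbp1*-/- and 158, 125 and 114.3 in *Gtpbp2*-/- mice. It was the only 1 of the 6 whose mutant groups did not overlap, by a margin of the last digit, with *Gtpbp1*-/- libraries lowest. The log2 fold change was -1.21 (SE 0.0728) in *Gtpbp1*-/- and -0.93 (SE 0.111) in *Gtpbp2*-/- mice, or 43.3% and 52.6% of the B6J mean.

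*Gpr22*, the orphan receptor, had 114, 116 and 108 RNA CPM in B6J, 47.1, 48.9 and 54.5 in *Gtpbp1*-/- and 53.9, 48.9 and 56.0 in *Gtpbp2*-/- mice. Its replicates were tight in every group, and the mutants overlapped at 44.6% and 47.1% of the B6J mean (log2 fold change -1.16, SE 0.0781, and -1.09, SE 0.0787).

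*Nrep* had 1286, 1217 and 1414 RNA CPM in B6J, 433, 469 and 537 in *Gtpbp1*-/- and 545, 599.8 and 535 in *Gtpbp2*-/- mice. The mutants overlapped narrowly, at *Gtpbp1*-/- replicate 3 and *Gtpbp2*-/- replicate 3. The regeneration-linked gene stood at 36.7% and 42.9% of its B6J mean, with log2 fold changes of -1.45 (SE 0.102) and -1.22 (SE 0.0941).

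*Cadm3*, the adhesion molecule, differed least. It had 1186, 1287 and 1218 RNA CPM in B6J, 880.5, 780.5 and 905 in *Gtpbp1*-/- and 1039, 929 and 817 in *Gtpbp2*-/- mice, and no mutant library reached the lowest B6J library. The means were 69.5% and 75.5% of B6J (log2 fold change -0.52, SE 0.0873, and -0.41, SE 0.1002). In TPM, *Gtpbp2*-/- replicate 1, at 516, lay above B6J replicate 3, at 492, so the gap between *Gtpbp2*-/- and B6J mice was present in CPM and absent in TPM.

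**Figure D1:**
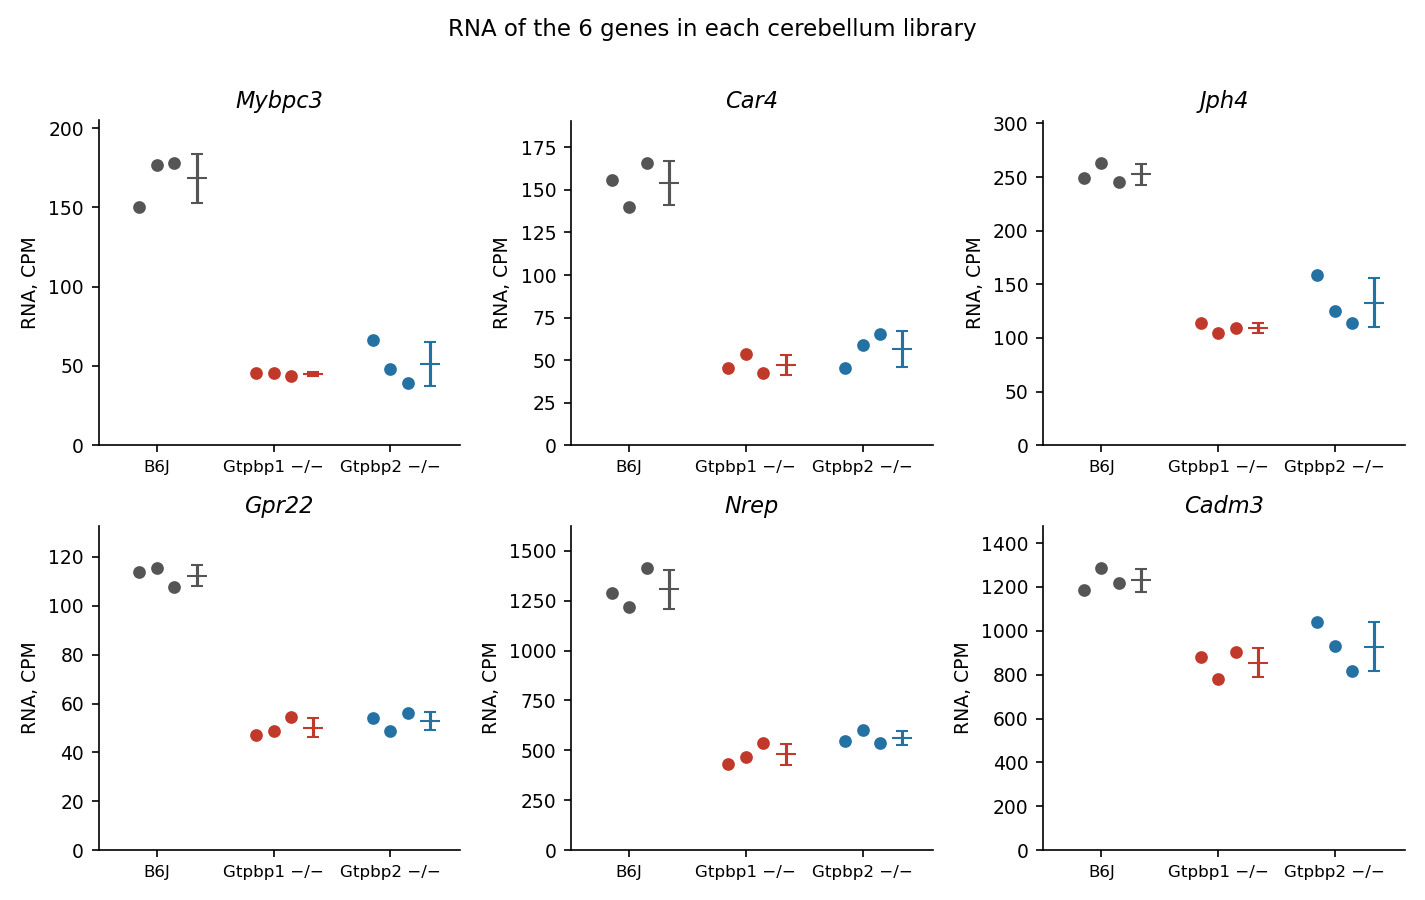
RNA of the 6 genes in CPM, with 1 panel per gene, 1 point per library and the mean ± SD of each genotype beside its points (n = 3). In every panel the mutant libraries lie below the B6J libraries, with *Mybpc3* lowest relative to B6J (26.7% in *Gtpbp1*-/- mice) and *Cadm3* nearest to it (75.5% in *Gtpbp2*-/- mice).

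As a measure of how the choice was made, the protein-coding genes with lower RNA were put in order of their p. In the *Gtpbp1*-/- comparison, *Mybpc3* was at place 1 of 8287, *Car4* at 3, *Jph4* at 4, *Gpr22* at 8, *Nrep* at 9 and *Cadm3* at 483. Genes between them that were not chosen were *Gm10600* at place 2 (log2 fold change -4.72), *Tbata* at 5 (-1.75), *Tnc* at 6 (-1.89) and *Lzts3* at 7 (-1.10), and *Bcl2l15* came next at 10 (-1.44). The *Gtpbp2*-/- comparison placed *Gpr22* at 3 of 8396, *Nrep* at 5, *Car4* at 15, *Jph4* at 66, *Mybpc3* at 140 and *Cadm3* at 879. *Tyro3* (-1.48), *Tnc* (-1.66) and *Adamts10* (-1.16) were at places 1, 2 and 4 there. *Cadm3* is therefore far from the other 5 in both orders.

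The 6 genes are 6 of those called lower by edgeR in each RNA comparison. All 6 of the 6 were called lower in *Gtpbp1*-/- mice, as were 7.93% of the 24577 genes tested, while 5.90% of those genes were called higher. *Gtpbp2*-/- mice had 6 of the 6 called lower, beside 5.02% of 24859 genes called lower and 3.61% called higher, and the choice of genes fixes these counts too. With upper quartile normalization the balance over all genes turned, from 42.6% to 54.9% of the called genes being higher in *Gtpbp1*-/- mice and from 41.8% to 53.3% in *Gtpbp2*-/- mice. These counts describe the choice and are no test of it, and *Cadm3* in *Gtpbp2*-/- mice was not called in 6 of 14 alternatives, with the offset for effective transcript length (-0.385), with sex as a covariate (-0.38), without B6J replicate 1 (-0.43) or 2 (-0.375) and without *Gtpbp2*-/- replicate 2 (-0.409) or 3 (-0.32).

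Ribosome footprints are the fragments of mRNA that translating ribosomes protect, counted here on the coding sequence. Their mean was below B6J for all 6 genes in both mutants, at 18.2% to 72.5% of B6J in *Gtpbp1*-/- and 41.2% to 71.0% in *Gtpbp2*-/- mice. Below the B6J range in all 3 *Gtpbp1*-/- libraries were 4 of the 6 genes, against 8.79% of the 13956 genes tested. In *Gtpbp2*-/- mice 4 of the 6 were, against 11.6% of 13797. Both counts include values that may have entered the choice, *Mybpc3* in *Gtpbp1*-/- and *Cadm3* in *Gtpbp2*-/- mice. They describe the genes and are no test. Footprints come from other libraries than the RNA, but from the same genotypes. A pair of footprint values lay near the top of the footprint order themselves, *Mybpc3* in *Gtpbp1*-/- mice (place 2 of 6756 genes with a lower value) and *Cadm3* in *Gtpbp2*-/- mice (place 5 of 6806), and may have entered the choice. These 2 values are given without a test, and the other 10 with one. Whether footprints entered the choice at all is not stated, and *Gpr22*, *Car4* and *Nrep* were at places 26, 58 and 90 of the same *Gtpbp2*-/- order, so their tests may not be free of the choice either.

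In *Gtpbp1*-/- mice, *Mybpc3* was left out of the count because of its own footprint place, so the count does not describe all 6 genes. Of the 5 genes tested, 0 passed edgeR's test (4 had an unadjusted p under 0.05, and DESeq2 called 0), where 0.172% of all genes were called lower and 0.573% higher. That balance of 80 higher and 24 lower was not firm, with 251 and 155 by DESeq2 and 89 and 97 without B6J replicate 3. In *Gtpbp2*-/- mice, 3 of the 5 genes tested were called lower (DESeq2 called 3), beside 1.67% of all genes called lower and 1.28% called higher. These 3 are *Gpr22*, *Car4* and *Nrep*, whose tests may not be free of the choice. The count is therefore a description and does not show that the chosen genes differ from other genes. The *Gtpbp2*-/- balance over all genes, 230 lower and 176 higher, was not firm either. It was 90 lower and 96 higher without B6J replicate 2, and 51 and 55 without *Gtpbp2*-/- replicate 1. Over all genes, edgeR called 104 in *Gtpbp1*-/- and 406 in *Gtpbp2*-/- mice, and DESeq2 406 and 655.

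Footprints on *Mybpc3* were 77.8, 105 and 37.3 CPM in B6J, 10.2, 15.5 and 14.4 in *Gtpbp1*-/- and 45.1, 40.4 and 17.9 in *Gtpbp2*-/- mice. Every *Gtpbp1*-/- library lay far below the lowest B6J library, which was replicate 3, while *Gtpbp2*-/- libraries overlapped with B6J. The *Gtpbp1*-/- mean was 18.2% of B6J (log2 fold change -2.45, SE 0.342, without a test). In *Gtpbp2*-/- mice the log2 fold change of -1.11 (SE 0.503) did not pass (edgeR adjusted p = 0.338). With sex as a covariate, added after the data were seen, the *Gtpbp2*-/- value was -0.14. That value rests on B6J replicate 3, the only female control library. The replicate block gave -1.08 with an edgeR adjusted p of 0.00683, but the replicate numbers were not taken to pair the libraries.

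*Car4* had 175, 279 and 258 footprint CPM in B6J, 273, 137 and 106 in *Gtpbp1*-/- and 137, 92.1 and 93.8 in *Gtpbp2*-/- mice. *Gtpbp1*-/- replicate 1 lay within the B6J range and its other replicates below it, while all *Gtpbp2*-/- libraries lay below. The footprints on this carbonic anhydrase fell by 1.149 on the log2 scale in *Gtpbp2*-/- mice (SE 0.206, edgeR adjusted p = 0.00755), lower in 3 of 3 libraries. That call was lost without *Gtpbp2*-/- replicate 2 (-1.04, edgeR adjusted p = 0.0568), with all 9 libraries in 1 model (-1.14, 0.0992, the highest of the 12 alternatives) and with sex as a covariate (-1.27, 0.0686). In *Gtpbp1*-/- mice the log2 fold change was -0.46 (SE 0.318, edgeR adjusted p = 0.598), which did not pass. It was -0.96 without *Gtpbp1*-/- replicate 1, -0.30 without replicate 2 and -0.21 without replicate 3.

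Footprints on *Jph4* were 57.5, 81.9 and 44.8 CPM in B6J, 24.6, 27.6 and 46.6 in *Gtpbp1*-/- and 46.2, 55.0 and 29.5 in *Gtpbp2*-/- mice. Both mutants overlapped with B6J, *Gtpbp1*-/- mice through replicate 3 alone. The junctophilin's log2 fold change was -0.90 (SE 0.283, edgeR adjusted p = 0.174) in *Gtpbp1*-/- and -0.52 (SE 0.260, edgeR adjusted p = 0.337) in *Gtpbp2*-/- mice, and neither passed. Without *Gtpbp1*-/- replicate 3 the *Gtpbp1*-/- value was -1.23 with an edgeR adjusted p of 0.0400, the lowest of the 12 alternatives, and with sex as a covariate the *Gtpbp2*-/- value was -0.07. The *Gtpbp2*-/- value was -0.25 without B6J replicate 2 and -0.29 without *Gtpbp2*-/- replicate 3.

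*Gpr22* had 40.7, 57.5 and 51.9 footprint CPM in B6J, 31.0, 36.7 and 23.0 in *Gtpbp1*-/- and 21.6, 17.0 and 23.2 in *Gtpbp2*-/- mice. All 6 mutant libraries lay below B6J, and the *Gtpbp2*-/- libraries were lowest as a group. Footprints on the receptor fell by 1.28 on the log2 scale in *Gtpbp2*-/- mice (SE 0.206, edgeR adjusted p = 0.00395), to 41.2% of B6J, and the call held in all 12 alternatives, with log2 fold changes between -1.41 and -1.16. For *Gtpbp1*-/- mice it was -0.72 (SE 0.229, edgeR adjusted p = 0.178), which did not pass.

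*Nrep* had 447, 728 and 519 footprint CPM in B6J, 419.7, 263 and 379 in *Gtpbp1*-/- and 345, 241 and 219 in *Gtpbp2*-/- mice. Every mutant library lay below the lowest B6J library, *Gtpbp1*-/- replicate 1 by the least. Its footprints fell by 1.08 on the log2 scale in *Gtpbp2*-/- mice (SE 0.213, edgeR adjusted p = 0.0134). This call was lost without B6J replicate 2 (-0.86, edgeR adjusted p = 0.0538), without *Gtpbp2*-/- replicate 2 (-1.001, 0.0861) and with sex as a covariate (-0.96, 0.241, the highest of the 12 alternatives). Its *Gtpbp1*-/- value, -0.67 (SE 0.230, edgeR adjusted p = 0.217), did not pass, and it was -0.45 without B6J replicate 2.

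*Cadm3* had 1265, 1869 and 1451 footprint CPM in B6J, 1079, 920.5 and 1101 in *Gtpbp1*-/- and 664, 611 and 622 in *Gtpbp2*-/- mice. The 3 groups formed 3 separate ranges, with *Gtpbp2*-/- mice lowest. The *Gtpbp2*-/- mean was 41.4% of B6J (log2 fold change -1.28, SE 0.175, without a test). The adhesion molecule in *Gtpbp1*-/- mice stood at 67.6% of B6J, and the log2 fold change of -0.56 (SE 0.198, edgeR adjusted p = 0.230) did not pass.

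**Figure D2:**
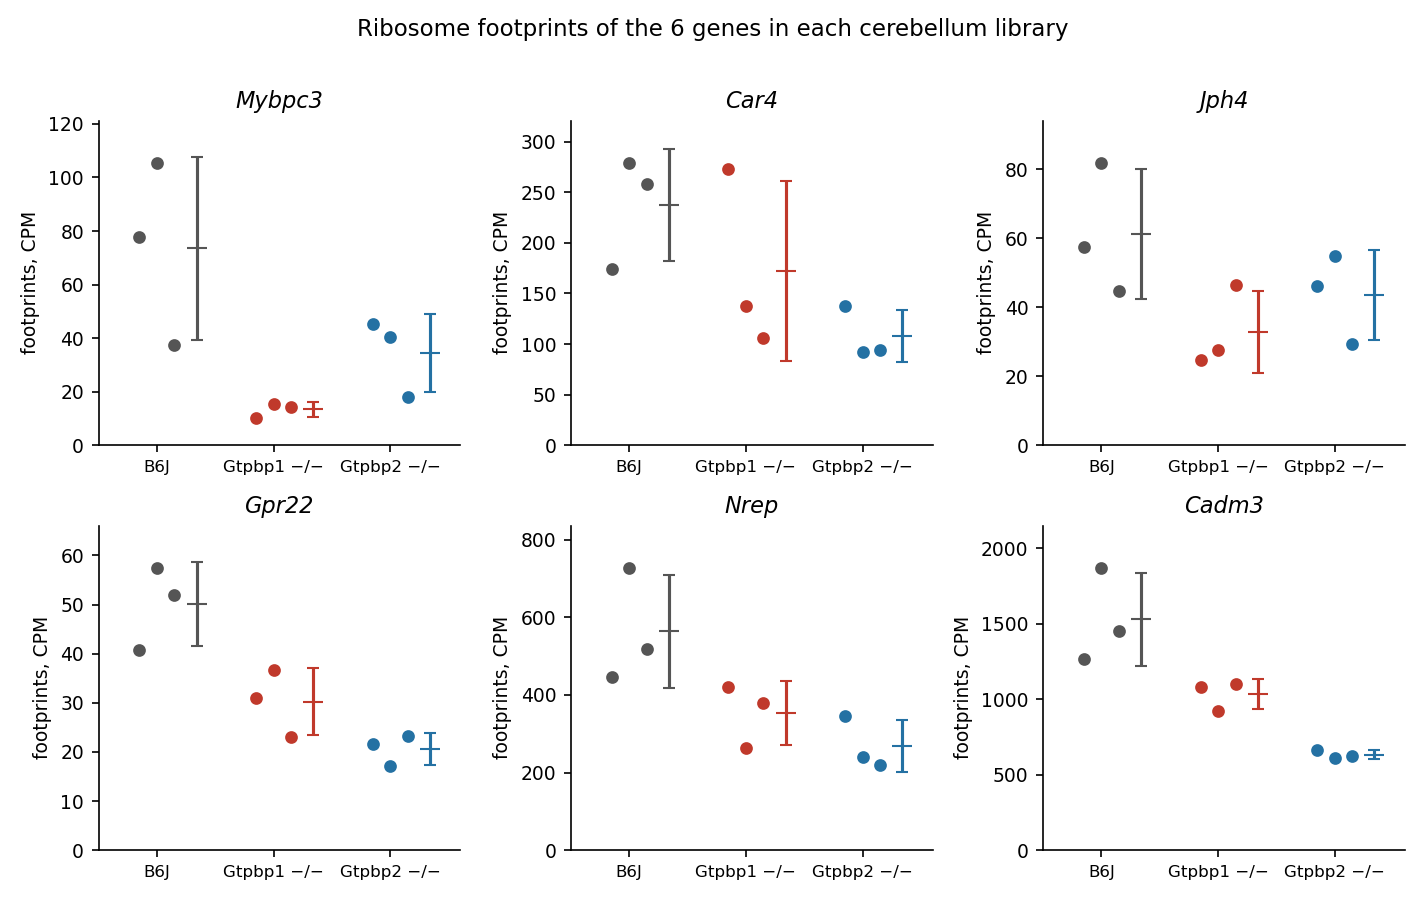
Footprints on the coding sequence of the 6 genes in CPM, with 1 panel per gene, 1 point per library and the mean ± SD of each genotype beside its points (n = 3). *Gpr22*, *Nrep* and *Cadm3* lie below the B6J range in both mutants, *Mybpc3* in *Gtpbp1*-/- mice alone and *Car4* in *Gtpbp2*-/- mice alone, and *Jph4* overlaps with B6J in both.

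Set against each other, the mutants had mean RNA in the order B6J, *Gtpbp2*-/-, *Gtpbp1*-/- from high to low for all 6 genes. Single libraries of the mutants overlapped for all of them but *Jph4*, and the RNA differences between the mutants were not tested. The order was not firm, since the log2 difference of *Gtpbp1*-/- from *Gtpbp2*-/- RNA for *Mybpc3* went from -0.19 to 0.05 without *Gtpbp2*-/- replicate 1, and that for *Gpr22* from -0.08 to 0.045 with sex as a covariate. The difference also shrank for *Nrep* (from -0.22 to -0.06 with sex as a covariate) and for *Cadm3* (from -0.12 to -0.03 without *Gtpbp2*-/- replicate 1). That for *Jph4* went from -0.28 to -0.13 without *Gtpbp2*-/- replicate 1, and that for *Car4* from -0.26 to -0.15 without *Gtpbp2*-/- replicate 3.

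Mean footprints had no common order of the mutants. Relative to *Gtpbp2*-/- mice, *Gtpbp1*-/- mice had higher mean footprints on *Car4* (log2 difference 0.68, SE 0.318), *Gpr22* (0.55, SE 0.231), *Nrep* (0.40, SE 0.223) and *Cadm3* (0.71, SE 0.160). They had lower mean footprints on *Mybpc3* (-1.35, SE 0.326) and *Jph4* (-0.40, SE 0.283). The *Mybpc3* and *Cadm3* differences use the values that may have entered the choice and are given without a test. With edgeR, 0 of the other 4 passed, as did 0% of 14142 genes in either direction (1 of the 4 and 1523 of all genes had an unadjusted p under 0.05, and DESeq2 called 0 of the 4 and 100 genes). The *Car4* difference was 0.19 without *Gtpbp1*-/- replicate 1, and that of *Nrep* 0.62 without *Gtpbp2*-/- replicate 1. The *Jph4* difference was -0.21 without *Gtpbp1*-/- replicate 1, -0.72 without *Gtpbp1*-/- replicate 3, -0.20 without *Gtpbp2*-/- replicate 2 and -0.62 without *Gtpbp2*-/- replicate 3. So the calls of *Car4*, *Gpr22* and *Nrep* in *Gtpbp2*-/- mice alone are not shown to differ from *Gtpbp1*-/- mice (edgeR adjusted p = 0.477, 0.429 and 0.548).

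Translational efficiency, the footprints of a gene relative to its RNA, was estimated as an interaction in 1 model over the 12 libraries of a mutant and B6J. Since RNA enters it, the values describe the genes without a test. *Car4* in *Gtpbp1*-/- mice had the largest value, a log2 difference from B6J of 1.24 (SE 0.382), above 99.0% of 13106 genes, with RNA at 30.6% and footprints at 72.5% of B6J. It leans on *Gtpbp1*-/- replicate 1, whose 273 footprint CPM stood above the 137 and 106 of the others, and without which the footprint log2 fold change was -0.96 in place of -0.46. *Nrep* was next in *Gtpbp1*-/- mice at 0.78 (SE 0.274), above 95.9% of the genes, followed by *Gpr22* at 0.45 (SE 0.232) and *Jph4* at 0.31 (SE 0.316). *Cadm3* stood at -0.04 (SE 0.211), near the median of 0.03 over all genes, and *Mybpc3* at -0.54 (SE 0.378), above 6.71% of them.

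In *Gtpbp2*-/- mice the efficiency of *Cadm3* was -0.92 (SE 0.207), above 3.04% of 12952 genes, since its footprints were lower relative to B6J than its RNA. *Mybpc3* was at 0.55 (SE 0.560), *Jph4* at 0.36 (SE 0.316) and *Car4* at 0.26 (SE 0.271), each with an SE near the size of the value, around a median over all genes of -0.02. *Nrep* was at 0.10 (SE 0.260) and *Gpr22* at -0.22 (SE 0.206), so for this pair RNA and footprints were lower by about the same factor.

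**Figure D3:**
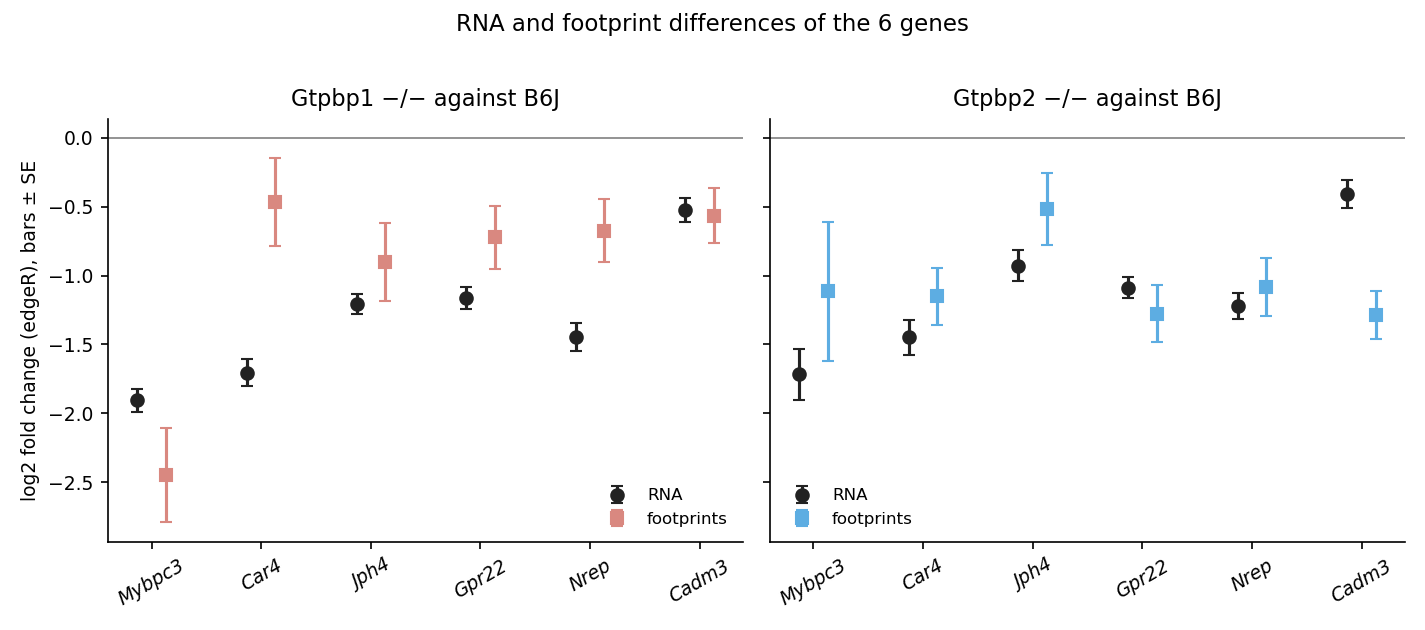
Log2 fold change against B6J (y axis) of RNA (circles) and footprints (squares) for the 6 genes, with 1 panel per mutant and bars of 1 SE to each side (n = 3 libraries per group). RNA lies between -1.91 and -0.41 and footprints between -2.45 and -0.46.

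The main annotated transcripts of each gene had lower means in both mutants, with wide spread for some, and none was tested. *Mybpc3-203*, a protein-coding transcript, went from 58.2 ± 5.08 TPM in B6J to 15.3 ± 1.94 in *Gtpbp1*-/- and 17.2 ± 3.12 in *Gtpbp2*-/- mice. *Mybpc3-202* was at 4.77 ± 1.12, 3.37 ± 1.92 and 4.21 ± 2.94 TPM, so the share of the gene held by *Mybpc3-203* was 92.0% in B6J and 81.0% and 80.1% in the mutants. *Gpr22-201* held 96.1%, 96.0% and 98.1% of its gene, at 59.8 ± 2.58, 29.4 ± 1.86 and 31.5 ± 2.099 TPM.

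*Car4-201*, the main protein-coding form, had 223 ± 17.3, 78.9 ± 9.13 and 92.2 ± 17.5 TPM in B6J, *Gtpbp1*-/- and *Gtpbp2*-/- mice, a steady 69.4%, 71.2% and 69.6% of the gene. *Car4-203*, a form annotated as a target of nonsense-mediated decay, was at 33.8 ± 8.07, 10.1 ± 0.959 and 13.6 ± 4.38 TPM. Both forms of *Car4* were thus lower by a similar factor. For *Jph4*, protein-coding *Jph4-201* (47.3 ± 7.13, 24.5 ± 2.35 and 26.8 ± 3.30 TPM) and the retained-intron form *Jph4-203* (22.9 ± 2.85, 10.9 ± 0.815 and 14.2 ± 0.404 TPM) were both lower, and protein-coding *Jph4-202* was at 29.4 ± 8.16, 12.9 ± 0.269 and 18.3 ± 5.89 TPM.

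*Nrep* has 3 transcripts, all protein-coding. *Nrep-203* had 624 ± 139, 313 ± 57.8 and 291 ± 15.1 TPM, and *Nrep-201* had 549 ± 165, 179 ± 49.3 and 267 ± 33.8 TPM. *Nrep-203* held 62.5% of the gene in *Gtpbp1*-/- mice against 51.5% in B6J and 50.3% in *Gtpbp2*-/- mice. For *Cadm3*, protein-coding *Cadm3-202* was at 278 ± 10.02, 216 ± 14.1 and 235 ± 23.6 TPM, and protein-coding *Cadm3-201* at 144 ± 31.6, 110.4 ± 16.9 and 116 ± 21.4 TPM. Its most abundant retained-intron form was at 55.8 ± 3.27, 55.3 ± 17.6 and 48.6 ± 10.9 TPM, and *Cadm3-203*, also with a retained intron, at 8.34 ± 1.30, 10.9 ± 1.56 and 14.3 ± 11.6 TPM. A further retained-intron form, *Cadm3-205*, was at 30.3 ± 0.432, 22.6 ± 2.62 and 27.7 ± 7.01 TPM, so the retained-intron forms of *Cadm3* did not move together. Splitting reads between overlapping transcripts is an estimate, and transcript differences were not tested.

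Genes with RNA most like each of the 6 were sought by Pearson's r of log2 CPM over the 9 RNA libraries, among 14170 protein-coding genes with a mean of at least 1 CPM, the other 5 of the 6 left out. The points share the difference between genotypes, so r is high for many genes that are lower in both mutants. For *Mybpc3* the highest values were *Rasl10b* (0.998), *Kcnj9*, a subunit of G protein-gated potassium channels (0.996), and *Thrsp* (0.994), and 313 genes had an r of at least 0.95. *Car4* had 126 such genes, led by *Ift22* (0.988), the mitochondrial gene *mt-Nd1* (0.985) and *Arhgef3* (0.985). *Jph4* had 307, led by *Cacna1e*, a voltage-gated calcium channel (0.997), *Wipf3* (0.993) and *Zfp467* (0.993).

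*Gpr22* had 243 such genes, led by *Pitpna* (0.995), *Defb42* (0.994) and *Peak1* (0.990). *Nrep* had 208, led by *Anks6* (0.993), *Gabra6*, the GABA receptor subunit of granule neurons (0.992), and *Top2b* (0.992). *Cadm3* had 148, led by *Ppp1r9b*, a scaffold of dendritic spines (0.988), *Fam57b* (0.987) and *Pkib* (0.985). Likeness in r did not need likeness in size, since *Pitpna* RNA differed from B6J by -0.30 and -0.27 on the log2 scale where *Gpr22* differed by -1.16 and -1.09.

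The relatives of each gene were read from the same fits as lists of known family members and partners. Over all genes tested, the median log2 fold change was 0.03 in both RNA comparisons and 0.01 in both footprint comparisons. List counts were also made with DESeq2, upper quartile normalization, sex as a covariate and, for RNA, an offset for effective transcript length. The shares of all genes called lower and higher, 7.93% and 5.90% in *Gtpbp1*-/- RNA and 5.02% and 3.61% in *Gtpbp2*-/- RNA, are the background of the RNA list counts. For footprints these shares are 0.172% and 0.573% in *Gtpbp1*-/- and 1.67% and 1.28% in *Gtpbp2*-/- mice, and no list was tested against them.

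The list beside *Mybpc3* holds myosin-binding and cardiac thick filament genes and also *Tnnt2*, a troponin gene of the thin filament. In *Gtpbp1*-/- RNA, 0 of the 17 tested passed with edgeR (3 had an unadjusted p under 0.05, DESeq2 called 0), with a median of 0.10, where 7.93% of all genes were called lower and 5.90% higher. With the offset for effective transcript length, edgeR called 1 higher, *Tnnt2*, and the median was 0.28. In *Gtpbp2*-/- RNA, 1 of 16 was called, the giant sarcomere protein gene *Ttn*, which rose by 0.87 (edgeR adjusted p = 0.0313, and 0.115 at most, lost in 8 of 14 alternatives, among them without B6J replicates 1 and 2 and without each *Gtpbp2*-/- replicate). *Ttn* RNA was low in B6J, at 2.62 ± 0.384 CPM. Its footprint log2 fold changes were -0.91 in *Gtpbp1*-/- and -0.88 in *Gtpbp2*-/- mice and did not pass (edgeR adjusted p = 0.543 and 0.523). The most abundant relative was *Mybpc1*, the slow skeletal form, at 60.5 ± 10.9 TPM in B6J, close to *Mybpc3* itself. Its RNA log2 fold changes of -0.32 and -0.19 did not pass (edgeR adjusted p = 0.229 and 0.341). Of 9 genes of this list tested in footprints, 0 passed with edgeR in either mutant (1 in *Gtpbp1*-/- and 0 in *Gtpbp2*-/- mice had an unadjusted p under 0.05, and DESeq2 called 0 in both).

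Among 21 carbonic anhydrases and bicarbonate carriers, 5 were lower and 0 higher in *Gtpbp1*-/- RNA, and 6 were lower and 0 higher in *Gtpbp2*-/- RNA (7.93% and 5.02% of all genes were lower). The medians were -0.01, which turned to 0.04 under upper quartile normalization, and -0.19, and the count of lower genes ran from 3 to 5 in *Gtpbp1*-/- and from 2 to 7 in *Gtpbp2*-/- mice over the alternatives, with 1 higher in *Gtpbp1*-/- mice by DESeq2. *Car11*, an acatalytic relative, fell by 0.76 in *Gtpbp1*-/- (edgeR adjusted p = 0.00011) and by 0.60 in *Gtpbp2*-/- mice (0.0103), in all 14 alternatives of both. *Car10*, its close relative, fell by 0.48 in *Gtpbp1*-/- (edgeR adjusted p = 0.00112) and by 0.38 in *Gtpbp2*-/- mice (0.0137). The *Gtpbp2*-/- call was lost with sex as a covariate (edgeR adjusted p = 0.0680), without B6J replicate 1 or 2 and without *Gtpbp2*-/- replicate 3 (0.0519 to 0.0671). *Car9* fell by 1.24 (edgeR adjusted p = 0.00225) and by 1.33 (0.00803), and both calls were lost with the offset for transcript length (-1.06 with 0.198, and -1.299 with 0.0965). The bicarbonate exchanger gene *Slc4a3* fell by 0.45 in *Gtpbp1*-/- mice (edgeR adjusted p = 0.00327) and had -0.39 in *Gtpbp2*-/- mice (0.0508). *Car8*, the most abundant at 1080.4 TPM, fell by 0.38 (edgeR adjusted p = 0.0427) and by 0.43 (0.0125), calls lost in 8 and 4 of 14 alternatives. The *Gtpbp1*-/- call was lost without B6J replicate 1 or 2 or *Gtpbp1*-/- replicate 1 or 2 (edgeR adjusted p up to 0.210), and the *Gtpbp2*-/- call without B6J replicate 1 or 2 or *Gtpbp2*-/- replicate 3 (up to 0.0603). In footprints, 0 of 20 passed in *Gtpbp1*-/- mice with edgeR (4 with an unadjusted p under 0.05, DESeq2 0), and in *Gtpbp2*-/- mice 2 were lower (beside 1.67% of all genes), *Car10* (-1.07, edgeR adjusted p = 0.0197) and *Car11* (-0.94, 0.0333). Each of this pair was lost in 6 of 12 alternatives, with edgeR adjusted p up to 0.531 and 0.412, among them without B6J replicate 1 or 2, without *Gtpbp2*-/- replicate 1 or 3 and, for *Car10*, without *Gtpbp2*-/- replicate 2.

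Of 22 junctophilins, calcium channels and calcium-activated potassium channels of junctional membranes, 5 were lower and 0 higher in *Gtpbp1*-/- RNA and 3 lower and 0 higher in *Gtpbp2*-/- RNA (medians -0.13 and -0.13, beside 7.93% and 5.02% of all genes lower). Over the alternatives 3 to 5 were lower in *Gtpbp1*-/- and 0 to 5 in *Gtpbp2*-/- mice, and 0 to 1 higher in each, *Stim2* by DESeq2 or under upper quartile normalization. *Jph3*, the other neuronal junctophilin, fell by 0.44 in *Gtpbp1*-/- mice (edgeR adjusted p = 0.00617, in all 14 alternatives) and had -0.30 in *Gtpbp2*-/- mice (0.115). *Cacna1a*, the P/Q-type calcium channel, fell by 0.43 in both (edgeR adjusted p = 0.00783 and 0.0382), but with the offset for transcript length it had -0.14 and -0.09 (0.394 and 0.760). The *Gtpbp1*-/- call was also lost without *Gtpbp1*-/- replicate 2 (edgeR adjusted p = 0.0598), and the *Gtpbp2*-/- call in 7 of 14 alternatives, also with sex as a covariate (0.1398), under upper quartile normalization (0.0590), without B6J replicate 1 or 2 and without *Gtpbp2*-/- replicate 2 or 3 (0.0973 to 0.1399). *Itpr3*, an inositol trisphosphate receptor, fell by 0.78 and by 0.76 (edgeR adjusted p = 0.00846 and 0.00996), calls lost without B6J replicate 2 (0.0501 and 0.0546) and, in *Gtpbp1*-/- mice, without replicate 2 (0.0516) and, in *Gtpbp2*-/- mice, with sex as a covariate (0.0514). *Ryr2*, a ryanodine receptor, fell by 0.43 and by 0.37 (edgeR adjusted p = 0.0187 and 0.0427), lost in 4 and 8 of 14 alternatives. The *Gtpbp1*-/- call was lost without B6J replicate 2 or *Gtpbp1*-/- replicate 1 or 2 (edgeR adjusted p up to 0.0831), and the *Gtpbp2*-/- call without B6J replicate 1 or 2 or any 1 of the *Gtpbp2*-/- replicates (up to 0.1325). *Itpr1*, the most abundant at 919.8 TPM, had -0.21 and -0.39 and did not pass (edgeR adjusted p = 0.561 and 0.221). In footprints, 0 of 21 passed in either mutant with edgeR (9 and 5 with an unadjusted p under 0.05, and 3 and 1 by DESeq2).

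The list of orphan receptors of brain held 29 genes, of which 28 were in the files. In *Gtpbp1*-/- RNA 3 of 27 were lower and in *Gtpbp2*-/- RNA 3 of 28, with 0 higher in both (medians -0.06 and 0.21, beside 7.93% and 5.02% of all genes lower). Over the alternatives 2 to 4 were lower in each, and DESeq2 called 3 higher in *Gtpbp2*-/- mice, *Gpr149*, *Gpr26* and *Gpr27*. *Gpr162* fell by 0.82 in *Gtpbp1*-/- (edgeR adjusted p = 3.8e-05) and by 0.75 in *Gtpbp2*-/- mice (0.000766), and *Gpr37l1*, a receptor of glia and the most abundant at 385 TPM, fell by 0.55 (0.00173) and by 0.56 (0.00496). Both genes kept their calls in all 14 alternatives of both comparisons. *Gpr63* fell by 0.50 in *Gtpbp2*-/- mice (edgeR adjusted p = 0.0124, lost without B6J replicate 2 or *Gtpbp2*-/- replicate 3, with sex as a covariate and with the offset, 0.0564 to 0.0833). *Gpr176* fell by 0.41 in *Gtpbp1*-/- mice (edgeR adjusted p = 0.0482), a call lost in 11 of 14 alternatives, with 0.172 without *Gtpbp1*-/- replicate 2 and losses without B6J replicates 1 and 2 and *Gtpbp1*-/- replicates 1 and 3. In footprints, 0 of 27 passed in *Gtpbp1*-/- mice with edgeR (1 with an unadjusted p under 0.05, DESeq2 0), and in *Gtpbp2*-/- mice 1 of 25 did (beside 1.67% of all genes lower), *Gpr162*, at -0.66 (edgeR adjusted p = 0.0443, up to 0.443, lost in 8 of 12 alternatives, among them without B6J replicate 1 or 2 and without any 1 of the *Gtpbp2*-/- replicates).

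Growth cone, regeneration and TGF-beta genes, the setting in which *Nrep* is known, moved both ways. Of 21 tested, 5 were higher and 5 lower in *Gtpbp1*-/- RNA, and 3 higher and 5 lower in *Gtpbp2*-/- RNA (medians 0.00 and 0.10), beside 5.90% and 3.61% of all genes higher and 7.93% and 5.02% lower. Over the alternatives, 2 to 6 were higher and 5 lower in *Gtpbp1*-/- mice, and 1 to 4 higher and 4 to 5 lower in *Gtpbp2*-/- mice. *Stmn2*, a microtubule regulator of growing axons and the most abundant at 679.5 TPM, fell by 0.74 in *Gtpbp1*-/- (edgeR adjusted p = 0.000256) and by 0.62 in *Gtpbp2*-/- mice (0.00680). *Gap43*, the growth cone protein, fell by 1.12 in *Gtpbp1*-/- (edgeR adjusted p = 0.000555) and by 0.91 in *Gtpbp2*-/- mice (0.00829). *Sox11*, a transcription factor of immature neurons, rose by 0.96 (edgeR adjusted p = 0.000692) and by 1.10 (0.00114), and these 3 genes kept their calls in all 14 alternatives. *Tgfbr2*, a TGF-beta receptor, rose by 0.65 in *Gtpbp1*-/- (edgeR adjusted p = 0.00167) and by 0.58 in *Gtpbp2*-/- mice (0.0295), where 7 of 14 alternatives lost the call, with 0.129 without *Gtpbp2*-/- replicate 3 and losses without each B6J replicate and *Gtpbp2*-/- replicate 2. In footprints, 0 of 21 passed in *Gtpbp1*-/- mice with edgeR (8 with an unadjusted p under 0.05, DESeq2 3). *Atf3* was called higher there by DESeq2, under upper quartile normalization and with sex as a covariate. In *Gtpbp2*-/- mice *Gap43* alone passed with edgeR (beside 1.67% of all genes lower), at -0.74 (edgeR adjusted p = 0.0160, up to 0.155, lost with sex as a covariate and without B6J replicate 2 or *Gtpbp2*-/- replicate 1 or 2). DESeq2 called 4 in *Gtpbp2*-/- mice, *Atf3*, *Basp1* and *Sox11* higher and *Gap43* lower.

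For *Cadm3*, 21 relatives and cytoplasmic partners from the Cadm and nectin families were tested. In *Gtpbp1*-/- RNA 1 was higher and 4 lower, and in *Gtpbp2*-/- RNA 0 higher and 1 lower (medians -0.11 and -0.15, beside 7.93% and 5.02% of all genes lower and 5.90% and 3.61% higher). Over the alternatives 2 to 4 were lower in *Gtpbp1*-/- and 0 to 4 in *Gtpbp2*-/- mice. The *Gtpbp2*-/- balance turned to 2 higher and 0 lower under upper quartile normalization, and DESeq2 gave 2 higher and 4 lower. The scaffold gene *Mpp2* fell by 0.44 in *Gtpbp1*-/- mice (edgeR adjusted p = 0.00775, and 0.0828 with the offset), with -0.31 in *Gtpbp2*-/- mice (0.111). *Mpp3* fell by 0.30 in *Gtpbp1*-/- (edgeR adjusted p = 0.00975, and 0.0518 without *Gtpbp1*-/- replicate 2) and by 0.38 in *Gtpbp2*-/- mice (0.0288), where 8 of 14 alternatives lost the call, with up to 0.115 without *Gtpbp2*-/- replicate 3 and losses without each B6J replicate and *Gtpbp2*-/- replicate 2. *Nectin1* fell by 0.38 in *Gtpbp1*-/- mice (edgeR adjusted p = 0.0144, lost without B6J replicate 1 or 2 or *Gtpbp1*-/- replicate 2 or 3, up to 0.0878). *Cadm4*, the most abundant at 202.5 TPM, fell by 0.35 in *Gtpbp1*-/- mice (edgeR adjusted p = 0.0157, up to 0.0803, lost with the offset and without the same 4 libraries), with -0.26 in *Gtpbp2*-/- mice (0.0986). In footprints 0 of 21 passed in either mutant with edgeR (4 and 4 with an unadjusted p under 0.05, and 0 and 1 by DESeq2).

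Markers of the cell types of cerebellum, and of tissues that could come along in dissection, were read in the same libraries, and their part in the lower values of the 6 genes was not tested. Of 11 granule neuron markers, 8 were lower and 0 higher in *Gtpbp1*-/- RNA and 7 lower and 0 higher in *Gtpbp2*-/- RNA (medians -0.42 and -0.50, with 7 to 8 and 6 to 9 lower over the alternatives), beside 7.93% and 5.02% of all genes lower. Their summed RNA was 3871, 3955 and 3999 TPM in the B6J libraries, 2717, 2639 and 3036 in *Gtpbp1*-/- and 2871, 3016 and 2598 in *Gtpbp2*-/- libraries, below B6J in all 6. *Gabra6*, the most abundant, fell by 1.08 in *Gtpbp1*-/- (edgeR adjusted p = 1.6e-05) and by 1.02 in *Gtpbp2*-/- mice (8.2e-05), and the neurogenic factor *Neurod1* by 0.71 (0.000331) and by 0.65 (0.00217), all in every alternative. *Pax6* fell by 0.33 (edgeR adjusted p = 0.0114) and by 0.29 (0.0426), lost in 4 and 9 of 14 alternatives. The *Gtpbp1*-/- call was lost without *Gtpbp1*-/- replicate 1 or 2 (edgeR adjusted p up to 0.0629), and the *Gtpbp2*-/- call without any 1 B6J replicate or *Gtpbp2*-/- replicate 2 or 3 (up to 0.186). In footprints, 0 of the 11 passed in *Gtpbp1*-/- mice with edgeR (7 with an unadjusted p under 0.05, DESeq2 2) and 6 were lower in *Gtpbp2*-/- mice (beside 1.67% of all genes), among them *Gabra6* (-1.30, edgeR adjusted p = 0.00378, and 0.0997 with sex as a covariate) and *Neurod1* (-1.26, 0.00291, in all 12 alternatives), with 1 to 7 lower over the list alternatives.

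Purkinje cell markers were lower for 2 and 3 of 11 genes in *Gtpbp1*-/- and *Gtpbp2*-/- RNA, with 0 higher, and for 0 to 4 and 0 to 5 over the alternatives, beside 7.93% and 5.02% of all genes. They summed to 8104, 8528 and 7381 TPM in B6J, 8269, 6838 and 8524 in *Gtpbp1*-/- and 7455, 7589.6 and 6300.4 in *Gtpbp2*-/- libraries, and *Aldoc* was the most abundant. These sums overlapped between all groups. Inhibitory interneuron markers were lower for 6 and 4 of 8 genes (6 and 2 to 6 over the alternatives), with 0 higher, and summed to 2093, 2086 and 1861 TPM, 1989.7, 1665 and 1727.5, and 1756, 1639 and 1407. *Pvalb* was the most abundant, and the *Gtpbp2*-/- sums lay below B6J while the *Gtpbp1*-/- sums overlapped. Of 9 markers of astrocytes and Bergmann glia, 1 was higher and 4 lower in both mutants (2 to 4 lower in *Gtpbp1*-/- and 0 to 4 in *Gtpbp2*-/- mice over the alternatives), with sums of 2606, 2631 and 2281 TPM in B6J, 2675, 2351 and 2637 in *Gtpbp1*-/- and 2282, 2625 and 2361 in *Gtpbp2*-/- libraries and *Slc1a3* most abundant. These sums overlapped between the groups.

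All 7 oligodendrocyte markers were lower in *Gtpbp1*-/- RNA (4 to 7 over the alternatives, beside 7.93% of all genes), and 0 of 7 were called in *Gtpbp2*-/- RNA (edgeR, 0 with an unadjusted p under 0.05, DESeq2 0). Their sums were 9645, 8308 and 9544 TPM in B6J, 7832, 7947 and 6828 in *Gtpbp1*-/- and 11352, 8572 and 9332 in *Gtpbp2*-/- libraries, with *Mbp* most abundant. The *Gtpbp1*-/- call of *Mbp* (-0.49, edgeR adjusted p = 0.0171) was lost in 5 of 14 alternatives, among them without B6J replicate 1 (0.0726) or *Gtpbp1*-/- replicate 2 (0.0563) or 3 (0.0518). *Gtpbp1*-/- sums lay below B6J and *Gtpbp2*-/- sums overlapped with it. Precursor markers had 0 higher and 1 lower of 5 in *Gtpbp1*-/-, and 1 higher and 1 lower in *Gtpbp2*-/- RNA, at 98.4, 97.9 and 99.4 TPM in B6J, 99.7, 95.6 and 80.5 in *Gtpbp1*-/- and 143, 99.0 and 98.1 in *Gtpbp2*-/- libraries (*Olig1* most abundant), and those sums overlapped. Over the alternatives 1 to 2 were lower in *Gtpbp1*-/- and 0 to 1 higher in *Gtpbp2*-/- mice. The higher gene was *Cspg4* (0.71, edgeR adjusted p = 0.0413), a call lost in 9 of 14 alternatives, among them without any 1 of the libraries.

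Some markers of microglia and vessels were higher, beside 5.90% and 3.61% of all genes. Of 7 microglial markers, 5 were higher in *Gtpbp1*-/- (4 to 5 over the alternatives) and 4 in *Gtpbp2*-/- RNA, with 0 lower. They summed to 114, 109 and 129.6 TPM in B6J, 261, 229.6 and 235 in *Gtpbp1*-/- and 221, 242 and 247 in *Gtpbp2*-/- libraries. The fractalkine receptor gene *Cx3cr1* rose by 1.05 in *Gtpbp1*-/- (edgeR adjusted p = 3.6e-05) and by 1.00 in *Gtpbp2*-/- mice (0.0003), in all 14 alternatives of both. The microglial markers *P2ry12* (0.32 and 0.46, edgeR adjusted p = 0.254 and 0.163) and *Tmem119* (0.28 and 0.18, 0.430 and 0.682) did not pass. Endothelial markers were higher for 4 and 5 of 10 genes (2 to 8 in each over the alternatives), with sums of 285, 279.99 and 261 TPM in B6J, 384, 385 and 405 in *Gtpbp1*-/- and 373, 449.8 and 478 in *Gtpbp2*-/- libraries (*Slco1a4* most abundant), and every mutant sum lay above B6J, although *Slc2a1* had -0.06 in *Gtpbp1*-/- mice and did not pass there. Pericyte markers were higher for 3 of 5 genes in *Gtpbp1*-/- mice (1 to 4 over the alternatives) and 0 in *Gtpbp2*-/- mice (edgeR, 2 with an unadjusted p under 0.05, DESeq2 2), with sums of 153, 155 and 155 TPM, 208, 241 and 249.97, and 155, 267 and 266 (*Rgs5* most abundant), and *Kcnj8* had -0.01 and -0.12.

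Footprints on the markers of other neurons and glia did not all lie the way of their RNA. Purkinje cell markers summed to 14737, 9810.2 and 20072 footprint CPM in B6J, 17886, 19928.5 and 11720.4 in *Gtpbp1*-/- and 21794, 22155 and 19359 in *Gtpbp2*-/- libraries. The *Gtpbp2*-/- sums overlapped with the highest B6J library and were otherwise higher, where their RNA sums were lower on average, and 0 of 11 passed in either mutant with edgeR (1 and 3 with an unadjusted p under 0.05, DESeq2 0 and 1). The median log2 fold change of the Purkinje cell footprints in *Gtpbp2*-/- mice went from 0.38 to -0.02 with sex as a covariate. Oligodendrocyte markers summed to 12100.1, 10524 and 15863 footprint CPM in B6J, 15676, 13738.5 and 12109 in *Gtpbp1*-/- and 15000.4, 16123 and 14394 in *Gtpbp2*-/- libraries. These overlapped, with a *Gtpbp1*-/- median of 0.10 against -0.45 in RNA, and 0 of 7 passed in either mutant with edgeR (0 with an unadjusted p under 0.05, DESeq2 0). For interneuron, astrocyte and precursor markers, 0 of 8, 0 of 9 and 0 of 5 passed in either mutant with edgeR (1, 2 and 1 with an unadjusted p under 0.05 in each mutant, and by DESeq2 0, 1 and 0 in *Gtpbp1*-/- and 1, 1 and 0 in *Gtpbp2*-/- mice).

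Footprints on markers of microglia and vessels were called higher in counts that varied with the analysis, beside 0.573% of all genes higher in *Gtpbp1*-/- and 1.28% in *Gtpbp2*-/- mice. Of 7 microglial markers, edgeR called 1 in each mutant, DESeq2 4 and 2, and the alternatives 2 to 4 and 0 to 2. Of 10 endothelial markers, edgeR called 1 and 3, DESeq2 5 and 7, and the alternatives 0 to 5 and 0 to 7. Of 5 pericyte markers, edgeR called 0 (5 with an unadjusted p under 0.05, DESeq2 0) and 2, and the alternatives 0 and 0 to 2. *Cldn5*, an endothelial junction gene, rose by 1.42 in *Gtpbp1*-/- footprints (edgeR adjusted p = 0.0209), a call lost in 4 of 12 alternatives, with sex as a covariate (0.0604) and without B6J replicate 1 (0.156) or 2 (0.0892) or *Gtpbp1*-/- replicate 1 (0.0830). In *Gtpbp2*-/- footprints it rose by 1.41 (edgeR adjusted p = 0.00395), lost with sex as a covariate alone (0.143). *Rgs5* rose by 1.17 in *Gtpbp2*-/- footprints (edgeR adjusted p = 0.0357), lost in 7 of 12 alternatives, among them without B6J replicate 1 (0.128) or 2 (0.1056) and without *Gtpbp2*-/- replicate 1 (0.137) or 2 (0.1056), and up to 0.426 with sex as a covariate.

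Choroid plexus, a tissue beside the cerebellum, varied between single libraries. Its 5 markers, led by *Ttr*, summed to 3325, 2185 and 452 TPM in B6J, 3708, 2768 and 785 in *Gtpbp1*-/- and 118, 2249.9 and 1469.6 in *Gtpbp2*-/- libraries, and 0 passed in either mutant (edgeR, 1 and 0 with an unadjusted p under 0.05, DESeq2 0). Footprint sums were 5627, 3804 and 63.7 CPM in B6J, 13756, 205 and 12098 in *Gtpbp1*-/- and 486, 9546 and 9653 in *Gtpbp2*-/- libraries. There too 0 of 5 passed in either mutant (edgeR, 1 and 0 with an unadjusted p under 0.05, DESeq2 0). *Mylpf* led the striated muscle markers, whose sums were 15.2, 11.5 and 9.18 TPM in B6J, 14.3, 8.94 and 14.6 in *Gtpbp1*-/- and 12.3, 15.2 and 10.8 in *Gtpbp2*-/- libraries, with 0 of 7 called in either mutant (edgeR, 0 with an unadjusted p under 0.05, DESeq2 0). In footprints the muscle markers summed to 8.50, 21.4 and 17.0 CPM in B6J, 42.2, 19.98 and 52.1 in *Gtpbp1*-/- and 4.22, 8.52 and 4.54 in *Gtpbp2*-/- libraries. With B6J the *Gtpbp1*-/- sums overlapped, the highest 2 lying above it, and the *Gtpbp2*-/- sums overlapped at 1 library. With edgeR, 0 of 9 passed in *Gtpbp1*-/- and 0 of 1 in *Gtpbp2*-/- mice (3 and 1 with an unadjusted p under 0.05, and DESeq2 called 1 higher and 1 lower). The muscle markers *Myh1* and *Ckm* were at 0 in 2 footprint libraries each, and RNA of *Mybpc3*, at 63.3 TPM in B6J, exceeded the sum of the skeletal muscle list in every B6J library.

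Bone and connective tissue markers, led by *Dcn*, summed to 87.6, 89.3 and 70.6 RNA TPM in B6J, 88.4, 122 and 98.7 in *Gtpbp1*-/- and 77.1, 113 and 109.6 in *Gtpbp2*-/- libraries. There, 1 of 6 was higher in *Gtpbp1*-/- (beside 5.90% of all genes) and 0 of 7 passed in *Gtpbp2*-/- RNA (edgeR, 0 with an unadjusted p under 0.05, DESeq2 0), and *Bglap* was at 0 in 1 RNA library. In footprints the same list summed to 375, 838 and 998 CPM in B6J, 1856, 1521 and 2875 in *Gtpbp1*-/- and 746, 1165 and 600.5 in *Gtpbp2*-/- libraries, highest in *Gtpbp1*-/- mice. With edgeR, 0 of 7 passed in either mutant (6 and 0 with an unadjusted p under 0.05, and 1 and 0 by DESeq2). Erythroid markers, led by *Hbb-bs*, summed to 5879.5, 3303 and 4486 TPM in B6J, 8197, 7148 and 9202 in *Gtpbp1*-/- and 1496.5, 7148 and 4009.6 in *Gtpbp2*-/- libraries, with all *Gtpbp1*-/- sums above the B6J range and *Gtpbp2*-/- sums below, above and within it. Of the 5, 1 was higher in *Gtpbp1*-/- RNA (1 to 5 over the alternatives, beside 5.90% of all genes) and 0 passed in *Gtpbp2*-/- RNA (edgeR, 0 with an unadjusted p under 0.05, DESeq2 0). No other defining marker of the 13 lists was at 0 in a library. Mitochondrial genes held 5.93%, 5.61% and 6.18% of the RNA counts of the B6J libraries, 4.42%, 4.99% and 4.56% in *Gtpbp1*-/- and 5.01%, 4.80% and 5.04% in *Gtpbp2*-/- libraries, lower in all 6 mutant libraries.

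**Figure D4:**
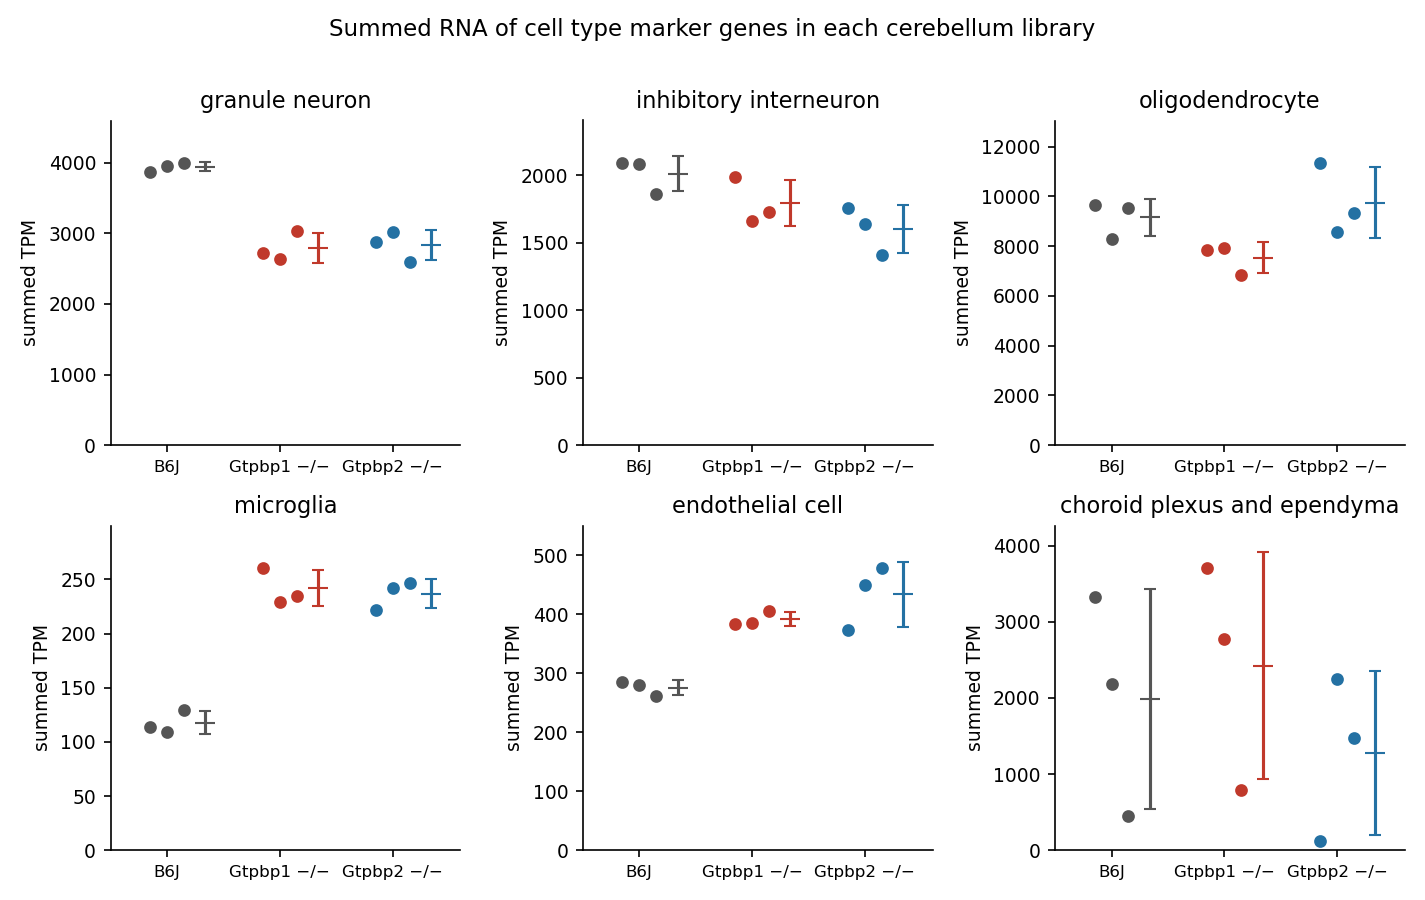
Summed RNA level of 6 of the marker lists in TPM (y axis), with 1 panel per list, 1 point per library and the mean ± SD of each genotype beside its points (n = 3). Granule neuron sums lie between 2598 and 3036 in the mutants against 3871 to 3999 in B6J, and microglial sums between 221 and 261 against 109 to 129.6.

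The 6 genes lie on 6 chromosomes, 4 of them on the minus strand (Gencode M21, GRCm38). They are *Mybpc3* at chr2:91118144-91136516, *Car4* at chr11:84957786-84966044, *Jph4* at chr14:55106826-55116935, *Gpr22* at chr12:31706867-31713947, *Nrep* at chr18:33437019-33464029 and *Cadm3* at chr1:173333258-173367695. *Gpr22* lies inside *Cog5*, on the opposite strand, with 0 shared exon bases, and *Cadm3* overlaps *Aim2*, also opposite, with 0. *Ackr1*, on the same strand, shares 361 of the 7248 exon bases of *Cadm3*. At 122 RNA CPM in B6J it is lower than *Cadm3* by a factor of about 10, and the counts of the pair are uncertain to that extent.

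Neighbours did not all share the lower RNA. *Madd*, a regulator of Rab GTPases beside *Mybpc3*, fell by 0.37 in *Gtpbp1*-/- (edgeR adjusted p = 0.00395) and by 0.34 in *Gtpbp2*-/- mice (0.0152, lost in 6 of 14 alternatives, up to 0.0904, among them without B6J replicate 1 or 2 or *Gtpbp2*-/- replicate 2 or 3). *Spi1*, on its other side, did not pass. *Ap1g2*, 232 bases from *Jph4*, fell by 0.85 in *Gtpbp1*-/- mice (edgeR adjusted p = 0.00190, lost with the offset, at -0.77 and 0.212, and with protein-coding transcripts alone, at -1.34 and 0.557) and had -0.57 in *Gtpbp2*-/- mice (0.140). *Stard4*, a cholesterol carrier gene 223156 bases from *Nrep*, fell by 1.10 (edgeR adjusted p = 2.1e-05) and by 0.93 (0.000467), in all 14 alternatives of both. *Ackr1* fell by 0.49 (edgeR adjusted p = 0.00131) and by 0.43 (0.0131, and 0.0635 without *Gtpbp2*-/- replicate 3). *Dus4l*, beside *Gpr22*, rose by 0.67 (edgeR adjusted p = 0.0199, lost in 4 of 14 alternatives, among them without B6J replicate 2 and without *Gtpbp1*-/- replicate 2, up to 0.146) and by 0.76 (0.0239, lost in 7, among them without any 1 B6J replicate and without *Gtpbp2*-/- replicate 2 or 3, up to 0.112). *Ifi206*, beside *Cadm3*, rose by 3.13 in *Gtpbp1*-/- mice (edgeR adjusted p = 0.0416, lost in 3 of 10 alternatives, up to 0.106, among them without B6J replicate 2). *Znhit3* and *Usp32* beside *Car4*, *Dhrs2*, *Hbp1*, *Cog5*, *Epb41l4a* and *Aim2* did not pass in either RNA comparison, and *Mptx2* was too low to test.

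Promoters were read from RefSeq (GRCm38.p6) for 5 of the 6 genes, 250 bases before to 50 after the start, because the RNA of these genes was lower together. Both strands were searched for 8 motifs, and the shares are of all 32851 promoters of that length. *Mybpc3* and *Jph4* both hold the E-box CAGCTG, found in 16.3% of promoters, and *Mybpc3* also holds a MEF2 element, found in 0.557%, and a GC box GGGCGG, found in 35.7%. None of these matches overlaps another. Both promoters are printed with the matches in capitals, *Mybpc3* from chr2:91117894-91118193 on the plus strand and *Jph4* from chr14:55116886-55117185 on the minus strand.
Mybpc3: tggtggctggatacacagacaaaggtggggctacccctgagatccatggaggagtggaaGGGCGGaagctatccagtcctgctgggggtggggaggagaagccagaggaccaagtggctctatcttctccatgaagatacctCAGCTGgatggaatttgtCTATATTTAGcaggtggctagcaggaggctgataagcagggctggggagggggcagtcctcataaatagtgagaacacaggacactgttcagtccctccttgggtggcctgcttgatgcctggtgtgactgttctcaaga
Jph4: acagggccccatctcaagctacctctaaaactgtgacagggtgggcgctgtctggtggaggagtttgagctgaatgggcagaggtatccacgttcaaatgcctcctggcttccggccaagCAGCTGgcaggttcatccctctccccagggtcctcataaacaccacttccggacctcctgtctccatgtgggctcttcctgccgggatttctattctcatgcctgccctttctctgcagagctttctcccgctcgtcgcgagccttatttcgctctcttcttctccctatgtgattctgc
The E-box starts 108 bases before the start of *Mybpc3* and 130 before that of *Jph4*, and the MEF2 element 90 before that of *Mybpc3*. *Car4* and *Gpr22* hold TATAAA, found in 13.6% of promoters, which in *Car4* lies after the start. TGACGTCA (1.79%), TGATGNAA (3.97%), CACGTG (7.15%) and CAGATG (17.2%) were found in 0 of the 5 windows, and *Cadm3* holds 0 of the 8 motifs. GC content was 66.7% for *Cadm3*, 57.3% for *Car4*, 56% for *Jph4*, 54.7% for *Mybpc3* and 43% for *Gpr22*, around a median of 52.7% over all promoters. A match says only that these letters are present.

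The tRNA that all groups lack in part reads AGA, so AGA codons were counted in the coding sequence of the main transcript of each gene (Gencode M21). *Gpr22* has 10 AGA codons among 432, or 23.1 per 1000, more than 89.6% of the 13523 genes with footprints tested, and AGA makes up 45.5% of its arginine codons. *Nrep* has 1 in 68 codons (14.7 per 1000), *Car4* 3 in 305 (9.84), *Jph4* 5 in 628 (7.96), *Mybpc3* 7 in 1278 (5.48) and *Cadm3* 2 in 396 (5.05). Over all genes the median was 10.1 per 1000 with quartiles of 5.10 and 16.5, so the 6 genes reach from just under the lower quartile to above the upper. The positions of footprints are not in the files, so pausing at these codons could not be measured.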

How the data were processed

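The authors deposited estimated counts and TPM per transcript from kallisto 0.42.4 for RNA, and a raw count per gene from featureCounts for footprints. The estimated counts were summed per gene and rounded, and TPM was summed. A gene needed 5 counts or more in 3 or more of 6 libraries and was tested with edgeR 4.0.16 (TMM, robust quasi-likelihood, Benjamini-Hochberg at 0.05) in R 4.3.3. DESeq2 1.42.0 was run as well, and limma 3.58.1 was present but ran no test. Python 3.11.15, numpy 2.4.6, pandas 2.3.3 and matplotlib 3.10.9 did the rest. The code was self-tested on simulated data. RNA is batch 1 and footprints batch 2 in the labels, so batch is assay. Members and lists were chosen with earlier results of these data known. The lists are 6 family lists, beside each of the 6 genes, and 13 marker lists. Genes named from a family list are its 4 called genes of lowest adjusted RNA p, or fewer, and its most abundant gene. Those of a marker list are from its defining markers and its most abundant gene.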

Additional observations from a re-analysis of the deposited data

How the results depend on the processing

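Alternatives were DESeq2, upper quartile normalization, all 9 libraries in 1 model, no filter, replicate block, each library left out and, for RNA, an offset for effective length and protein-coding transcripts alone. Sex as a covariate was added after seeing the data. For footprints, Gtpbp2 against B6J, it leaves B6J replicate 3 as the only control of the same sex, so that fit rests on this library. No called value was reversed, and the cause of the changes was not tested.

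For RNA, Gtpbp1 against B6J, genes called were 3398, with 2231 under the offset, 2301 with sex as a covariate and 1890 to 3798 with 1 library left out. For RNA, Gtpbp2 against B6J, genes called were 2146, with 3409 by DESeq2, 1360 under the offset, 1071 with sex as a covariate and 953 to 2357 with 1 library left out.

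For footprints, Gtpbp1 against B6J, genes called were 104, with 406 by DESeq2, 213 with all 9 libraries in 1 model, 213 with no filter, 56 with sex as a covariate and 22 to 186 with 1 library left out. For footprints, Gtpbp2 against B6J, genes called were 406, with 655 by DESeq2, 261 with all 9 libraries in 1 model, 45 with sex as a covariate and 106 to 619 with 1 library left out. For footprints, Gtpbp1 against Gtpbp2, genes called were 0, with 100 by DESeq2, 1 with all 9 libraries in 1 model, 15 with no filter, 3 under upper quartile normalization and 0 to 33 with 1 library left out.

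With the replicate block, genes called were 2237 for RNA, Gtpbp1 against B6J, 44 for footprints, Gtpbp1 against B6J, 510 for footprints, Gtpbp2 against B6J, and 1 for footprints, Gtpbp1 against Gtpbp2. The pairing check gave correlations over genes of deviations from the group mean between same-numbered replicates of -0.142, -0.0445 and -0.0448 for RNA, Gtpbp1 against B6J, and of -0.0705, 0.197 and 0.161 for footprints, Gtpbp2 against B6J. At most 2 of the 3 samples of a comparison correlated best with their own number, and no comparison had all 3 over 0.1, so the numbers were not taken to pair the libraries. For Mybpc3: footprints, Gtpbp2 against B6J, log2 fold change, the replicate block gave -1.08 with an edgeR adjusted p of 0.00683, a call that edgeR without the block did not make.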
